A study of Homo sapiens with 6 samples.

Results

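In a pool of short hairpin RNAs (shRNAs) against chromatin regulators, 79 hairpins had fewer than 10 counts in at least 2 of 3 untreated cultures and 100 or more counts in at least 2 of 3 cultures treated with azacitidine (AZA). They were chosen by these counts alone from 7293 hairpins with at least 1 count, of which they made 1.083%, and they targeted 68 of 912 genes. The counts that chose them are therefore given below as a description, without a test. The same rule with the groups exchanged took 4 hairpins. DHX9 and MIER2 had 3 members each, and ARID1A, BOP1, DDX56, DHX8, FTSJ3, RUVBL1 and SSRP1 had 2 each. The other 59 genes had 1.

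SKK-1, a human acute myeloid leukemia cell line, was transduced in triplicate with the Epi9 library of 7296 hairpins and selected with puromycin. Each culture was then split between an untreated arm and an arm given 0.25 µM AZA at intervals of 2 days. Genomic DNA was taken from both arms at day 14, and the guide strands were amplified by PCR and counted. Both groups thus carried the same library and the same selection. An untreated and an AZA-treated library of one number were taken to come from one transduced culture. The pool before treatment was not analysed here, so a hairpin's abundance at the start is not known. A count gives the abundance of cells that carry a hairpin, not the knockdown of its target, which was not measured in these files. The counts come from genomic DNA, so no expression marker of the cell line could be checked.

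An shRNA is processed in the cell into a short guide that pairs with a messenger RNA and lowers its level. In a pooled screen, a hairpin that slows growth becomes rare in the population relative to the other hairpins. AZA is a cytidine analog that is incorporated into nucleic acids and traps DNA methyltransferases on DNA.

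Guide sequences were at hand for 28 of the 79 members, all of genes whose symbols begin with A to E. Those of 10 members described one by one are printed here because they show which stretches of the transcripts the repeated hairpins of one gene addressed. Each is written 5′ to 3′ in DNA letters with the seed, bases 2 to 8 of the guide, in capitals. The guide is antisense to the messenger RNA.
DHX9.857: tATTTGATccatgttctcgtgc
DHX9.1127: tTTGTCGCtgagatggttcgaa
DHX9.3408: tCTACAAGcacaatctgcccat
ARID1A.2622: tTCCTCTGcatataacctcgat
ARID1A.3531: tTCACAGAcacatagaggcgat
DDX56.26: tGACCTACagacttgcgtcgtt
DDX56.1248: tTGAGTGCttgtacgtcctcgt
DHX8.1260: tTGATCTCccacttctctgggt
DHX8.2109: tCGTCCAAcatgatgatcgcgt
C14orf43.3672: tTGTAAAAcaccctgcagccgg

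Their target sites were located on GRCh38 with the GENCODE release 44 annotation. The DHX9 sites lay in coding sequence on the plus strand, in exon 8 (chr1:182858112-182858133), exon 10 (chr1:182858784-182858805) and exon 26 (chr1:182883608-182883629) of 28. They were 270 to 2551 bases apart in the transcript and did not overlap. The ARID1A sites were coding and on the plus strand. The one of ARID1A.2622 ran across the junction of exons 6 and 7 (chr1:26761468-26762167, intron included), and that of ARID1A.3531 lay in exon 11 of 20 (chr1:26767956-26767977). DDX56.1248 addressed coding sequence in exon 5 of 14 (chr7:44572369-44572390, minus strand). DDX56.26 matched a 5′ UTR in exon 1 of another annotated transcript (chr7:44574495-44574516). Both DHX8 sites were coding and on the plus strand, in exon 8 (chr17:43493861-43493882) and exon 14 (chr17:43507615-43507636) of 23. C14orf43.3672 matched the 3′ UTR in exon 12 of 12 of an annotated transcript (chr14:73718997-73719018, minus strand). That transcript is not marked as the gene's reference transcript (MANE Select).

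The 28 guides shared no seed with each other, and 10 of them (35.7%) shared one with another guide in the table, against 40.7% of the other guides. Their mean GC content was 45.5% ± 6.8 (SD over 28 guides), against 39.2% ± 8.3 over 1958 other guides in the table and 41.3% ± 8.2 over the 147 other guides against the same genes. Of 682 guides with a GC content of 45% or more, 20 (2.93%) were members, against 6 of 776 (0.77%) at 35% to under 45% and 2 of 528 (0.38%) below 35%. GC-rich hairpins were also less abundant in both groups. The median untreated count was 2841 below 35%, 1515.5 in the middle class and 934 at 45% or more, and the median AZA count was 3815, 2284 and 1488. Among guides with a GC content of 45% or more, 15.54% had fewer than 10 counts in at least 1 untreated culture and 2.93% in at least 1 AZA culture. Below 35% these shares were 1.14% and 0.57%. The part of GC content in the members' counts was not tested. Of the 28 sites, 22 (78.6%) were coding, 4 lay in a 3′ UTR and 2 in a 5′ UTR. Coding sites made 70.2% of the other sites that could be placed and 83.3% of those of the same genes.

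The libraries held 12292575 to 19645459 counts without drug and 18542022 to 22587662 with AZA. The median hairpin had 1229 to 1953 counts without drug and 2035 to 2511 with AZA. The part of this difference in depth in the members' counts was not tested. Untreated libraries held more hairpins at 0, 69 to 102 against 29 to 33, and a count of 0 allowed up to 0.1328 to 0.244 CPM (counts scaled by the library total). Of all hairpins, 113 had fewer than 10 counts in at least 2 untreated cultures and 30 in at least 2 AZA cultures. The members were thus 69.9% of the hairpins that were scarce without drug. The untreated arm was also more uneven within itself, since 458 hairpins had fewer than 10 counts in 1 or 2 untreated cultures and 100 or more in another, against 96 within the AZA arm. The limits given for a count of 0 cover counting error only. Molecular identifiers are not described, so these limits do not allow for PCR duplicates. The values after ± are SDs or SEs, as labelled, and are no counting errors.

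The median member count was 4, 1 and 1 in untreated cultures 1, 2 and 3, and 726, 668 and 813 in the AZA cultures. Most members were scarce in some untreated cultures and not in all. In 71 members 2 untreated cultures were below 10, and in 8 all 3 were. With untreated library 1, 2 or 3 left out, so that both others had to be below 10, the rule took 39, 29 or 27 hairpins. A single untreated culture kept the hairpin at 100 counts or more in 59 members, with 108 to 2822 counts and a median of 885 there, and at 10 to 99 counts in 12. This culture was number 1 for 27 members, number 2 for 18 and number 3 for 14. In it, the CPM was higher under AZA in 30 of the 59, with a median log2 difference of 0.02 (range -9.69 to 2.62, 1 count added). This culture was picked for its high untreated count, so the difference there is a description too.

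Under AZA, 54 members had 100 or more counts in all 3 cultures and 25 in 2. No member was abundant for the pool. The median AZA count of a member ran from 103 to 2466 with a median of 701, against 2198 over all hairpins, and only KIF22.1332 lay above the latter. Of the 79 hairpins with a median AZA count of 100 to under 300, 15 were members (18.99%), as were 46 of 904 at 300 to under 1000 (5.09%), 18 of 3922 at 1000 to under 3000 (0.46%) and 0 of 2337 at 3000 or more. In 17 members 1 AZA culture was below 10 counts, and in 10 of these it was at 0.

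The thresholds divided hairpins with nearly equal counts. Just inside, CDC34.798, HDAC5.3430 and MLH3.3678 had 9 counts in their second-lowest untreated culture, and RUVBL1.1337, DHX16.694 and ARID1A.3531 had 103, 112 and 134 counts in their second-highest AZA culture. Just outside, ATR.2123 and MSL2.1202 had 10 counts and UBA1.2253 had 11 in the second-lowest untreated culture. PCGF2.2437 and DDX5.1390 missed the other threshold with 99 counts and SRC.578 with 71.

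DHX9, an RNA helicase that unwinds double-stranded RNA and RNA-DNA hybrids, had 3 members. DHX9.3408 had 0 counts in every untreated culture and 990, 622 and 1122 counts under AZA. The groups did not overlap (a comparison made on CPM throughout), and the AZA level of 42.1 ± 11.5 CPM (SD, n = 3) was at least 213-fold higher than the floor of 3 counts per library. DHX9.1127 had 0, 1082 and 1 counts without drug and 1356, 2370 and 1283 with AZA, and untreated culture 2 was as high in CPM as AZA culture 3. DHX9.857 was kept in a different untreated culture, with 1201, 0 and 0 counts, and had 1297, 1602 and 605 under AZA. The other 5 hairpins against DHX9 had no count below 163 in any library. Their log2 fold changes (AZA over untreated, edgeR) ran from -1.39 to 0.33 with a mean of -0.60 ± 0.68 (SD over hairpins), and 1 of 5 was above 0. Counts below 10 without drug thus occurred in 3 of the gene's 8 hairpins.

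MIER2 belongs to a family of corepressors that bind histone deacetylases. MIER2.647 had 2, 0 and 9 untreated counts and 991, 867 and 1863 AZA counts, and was 1 of 3 members below 10 in every untreated culture and at 100 or more in every AZA culture, with DHX9.3408 and PRDM11.521. MIER2.1013 had 536, 2 and 5 counts without drug and 2232, 713 and 205 with AZA. MIER2.815 ran otherwise, with 0, 1 and 1555 untreated counts against 176, 198 and 134, so that its untreated mean of 28.0 ± 48.4 CPM stood above its AZA mean of 7.93 ± 2.03 (SD, n = 3). Its fitted log2 fold change was -1.82 ± 2.34 SE, and 5.62 ± 4.70 SE with the culture number as a block, so its sign stays unresolved. Among the 5 other hairpins, MIER2.1010 has an ID number 3 below that of MIER2.1013. It had 455, 1029 and 6 untreated and 1959, 1263 and 697 AZA counts, so it shared the low culture 3 but not the low culture 2. In the guide table, 93.0% of 1696 compared pairs of hairpins on one transcript had ID numbers that differed by the distance of their sites. The MIER2 guides were not in it. Whether hairpins this close shared reads was not tested. The log2 fold changes of the 5 ran from -0.32 to 0.90.

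Ribosome assembly gave 3 of the genes with repeated hairpins. BOP1 acts in the maturation of the large subunit's RNA, DDX56 is a nucleolar helicase of the same subunit, and FTSJ3 is a methyltransferase that takes part in ribosomal RNA processing. BOP1.1084 had 1, 1 and 2788 counts without drug and 283, 9 and 269 with AZA. BOP1.2025 had 2, 2204 and 2 against 1218, 453 and 0. Both BOP1 members had a lower mean under AZA, since the 1 untreated culture that kept the hairpin exceeded every AZA culture. The fitted log2 fold change of BOP1.1084 was -2.53 ± 2.30 SE, and 2.37 ± 3.27 SE with the culture number as a block. With such errors its sign stays unresolved. DDX56.1248 had 1, 928 and 0 untreated and 157, 1078 and 790 AZA counts, and DDX56.26 had 4, 284 and 0 against 474, 395 and 102. In both, culture 2 was the one that kept the hairpin. FTSJ3.3133 had 2, 0 and 71 counts against 1293, 264 and 1670, without overlap of the groups. FTSJ3.722 had 1, 0 and 827 against 1335, 14 and 581, and AZA culture 2 was low as well. The other 6 tested hairpins of each gene had mean log2 fold changes of -0.16 ± 1.34 for BOP1, 0.67 ± 1.35 for DDX56 and 0.12 ± 0.46 for FTSJ3 (SD over hairpins). Among them only the groups of DDX56.1287 did not overlap. It had 39, 0 and 67 counts against 322, 409 and 365 (log2 fold change 2.88 ± 2.41 SE). An untreated count below 10 also occurred in BOP1.275, BOP1.1545, FTSJ3.973 and FTSJ3.2685.

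DHX8 releases the spliced messenger RNA from the spliceosome. DHX8.1260 had 0, 0 and 10 counts without drug and 1857, 968 and 1123 with AZA, with means of 0.18 ± 0.311 and 62.2 ± 28.1 CPM (SD, n = 3). DHX8.2109 had 1391, 3 and 1 against 768, 244 and 0, and its groups overlapped. Of the gene's 6 other hairpins, 5 had a log2 fold change above 0 (45.1% of all hairpins), with a mean of 0.78 ± 0.97. DHX8.573 was the 1 among them whose groups did not overlap, with 427, 283 and 8 untreated and 1666, 1410 and 2854 AZA counts (log2 fold change 2.34 ± 1.31 SE, edgeR adjusted p = 0.932). Besides DHX8.573, the non-members DHX8.462 and DHX8.2760 also had an untreated count below 10.

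Chromatin remodelling and histone transfer gave the remaining repeated genes. ARID1A is the DNA-binding subunit of the BAF form of SWI/SNF. ARID1A.2622 had 274, 1 and 3 counts without drug and 376, 1964 and 485 with AZA, and ARID1A.3531 had 0, 8 and 285 against 641, 134 and 72. RUVBL1 is an ATPase of the INO80 and TIP60 complexes. RUVBL1.988 had 0, 730 and 1 counts against 332, 0 and 980, and RUVBL1.1337 had 3, 34 and 0 against 332, 17 and 103. Both RUVBL1 hairpins were low in AZA culture 2. SSRP1 is a subunit of the histone chaperone FACT. SSRP1.1949 had 62, 0 and 1 counts against 398, 1745 and 971, without overlap, and SSRP1.2234 had 0, 2343 and 1 against 608, 1670 and 385. The 6 other hairpins of each gene had mean log2 fold changes of -0.28 ± 1.23 for ARID1A, 0.08 ± 0.95 for RUVBL1 and 0.08 ± 0.39 for SSRP1.

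A further 5 members complete those described one by one. PRDM11.521, against a PR-domain protein, had 1, 0 and 1 untreated and 506, 485 and 987 AZA counts. The gene's 7 other hairpins had log2 fold changes of -1.06 to 0.66. The others were 4 of the 5 remaining members with the highest mean AZA level. C14orf43.3672, against a gene now named MIDEAS whose product forms a histone deacetylase complex, had 2, 758 and 1 counts against 671, 5264 and 838. KIF22.1332, against a kinesin that moves chromosomes at mitosis, had 1280, 4 and 0 against 2466, 1003 and 2501. MLH3.3678, against a mismatch repair protein, had 2715, 9 and 4 against 2369, 1235 and 2023, so the AZA counts were no higher than the untreated culture that kept it. KLHDC3.1856, against a substrate receptor of a ubiquitin ligase, had 2, 0 and 334 against 1705, 1870 and 1420, with no overlap.

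The DNA methylation machinery, which AZA acts on, is described for that reason, and its members were picked out after their values were seen. Of the 56 hairpins against its 7 genes, 2 were members (3.57%), against 1.08% of all hairpins. DNMT1, the maintenance methyltransferase, had 1 member of 8 hairpins. DNMT1.3989 had 0, 0 and 28 untreated and 409, 1012 and 2250 AZA counts. Of the 7 other DNMT1 hairpins, 6 had a log2 fold change above 0, with a mean of 0.77 ± 1.11 (SD over hairpins). Over all tested hairpins 45.1% were above 0. Of all tested hairpins, 6.62% were higher under AZA without overlap of the groups and 6.6% were lower without overlap. DNMT1.483 had 23, 694 and 9 untreated and 1794, 2002 and 1652 AZA counts, and DNMT1.2837 had 68, 1783 and 1398 against 2438, 3607 and 6387, both without overlap of the groups. DNMT1.2408 was lower under AZA in CPM without overlap, with 2783, 6617 and 3346 against 2601, 2593 and 3850 counts and a log2 fold change of -0.97 ± 0.46 SE. None of the 7 passed the threshold of 0.05 after Benjamini-Hochberg adjustment over all hairpins. UHRF1, which brings DNMT1 to hemimethylated DNA, had UHRF1.1673 with 304, 0 and 0 against 110, 1111 and 660 counts. Its 7 other hairpins had a mean log2 fold change of 0.37 ± 0.43, with 6 above 0. Such numbers were not particular to this machinery. Of the other hairpins tested, 7 of 7 were above 0 for DDB1 and 6 of 7 for ACTL6B, CDC34 and EED. Other member genes ran the other way, such as ERG, PARP12 and RAI1 with 1 of 7 each.

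KAT8, the acetyltransferase of the MSL and NSL complexes, stood out for hairpins at 0 and was likewise picked after its values were seen. KAT8.422 had 0 counts in all 3 untreated cultures and 939, 1363 and 62 under AZA, at least 192-fold above the floor of 3 counts per library. KAT8.275 and KAT8.278, which were not members, also had 0 in every untreated culture. They were found in AZA culture 1 only, with 548 and 49 counts. Their ID numbers lie 3 apart, so they may share reads, which was not tested. The 5 other KAT8 hairpins were counted in every library, with log2 fold changes of -1.99 to 0.08. The groups of KAT8.784 overlapped, with 3382, 1227 and 832 untreated and 948, 448 and 767 AZA counts.

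The 79 members were spread over many functions. The gene lists were drawn up with earlier results of these data known, so the shares describe them and test nothing. Of the 519 hairpins against 65 core essential genes, 22 were members (4.24%), from 15 genes, against 1.08% of all hairpins. With untreated library 1, 2 or 3 left out it was 1.93%, 1.93% or 1.54%, against 0.53%, 0.40% or 0.37% of all hairpins, and without AZA library 1 it was 2.50% against 0.77%. The share was 4.63% for ribosome biogenesis (10 of 216), 2.62% for splicing (5 of 191), 2.98% for SWI/SNF (5 of 168) and 2.88% for histone chaperones (3 of 104). The lists overlap. The BOP1, DDX18, DDX56, FTSJ3 and TTF1 members of ribosome biogenesis were already counted as core essential. So were the DHX8 and EIF4A3 members of splicing. For double-stranded RNA sensing the share was 5.56% (4 of 72), of which 3 were the DHX9 hairpins already counted as core essential. It was 0.28% (1 of 359) for genes of germ cells and other tissues, 0.32% (1 of 312) for DNA damage response and repair, and 0 for Polycomb repressive complex 1 (168 hairpins), ISWI and CHD remodellers (159) and arginine methyltransferases (80). In no list were 16 members (0.60% of 2680 hairpins), among them AIRE.297, CCDC79.2327, DDB1.833 and INMT.69. The shares, low ones included, thus depend on which genes each list was given. Hairpins that were no members but had fewer than 10 counts in 1 untreated culture followed some of these lists and not others. They made 10.66% of the non-members of the core essential list, 15.05% of splicing and 10.19% of ribosome biogenesis, against 5.41% over all genes and 1.98% of histone chaperones.

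Further members against ribosome and RNA genes were DDX18.2395, NAT10.2731, TTF1.515, WBSCR22.141 (now BUD23), DDX39B.288, DHX16.694, EIF4A3.806 and SKIV2L2.2075 (now MTREX, the helicase of the nuclear exosome). DHX58.2430 targets a cytoplasmic sensor of double-stranded RNA. Members against replication and mitosis genes were RPA1.912, FEN1.796 and AURKB.363. FEN1.796, against the endonuclease that trims Okazaki fragments, was low in every untreated culture with 7, 10 and 5 counts and had 3490, 369 and 29 under AZA. Members against transcription genes were TAF10.530, GTF2F1.1793, IWS1.1889, INTS12.1021, ERG.321, STAT5B.1527 and ZGPAT.967. TAF10.530, against a subunit of TFIID, had 1, 0 and 1089 counts without drug and 1158, 1788 and 1537 with AZA, and its AZA cultures were the more even.

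Members against remodelling and histone genes were ACTL6B.424, SMARCA2.3800 and SMARCD2.1363 of SWI/SNF, BRD8.1747 and RUVBL2.744 of TIP60, and ASF1A.1662, a histone chaperone. Those against histone-modifying enzymes and their partners were EED.1168 and JARID2.2990 of Polycomb repressive complex 2, KAT2A.2252, HDAC5.3430, SIN3B.2638, JMJD1C.2514, KDM5D.608, MLL2.11748 (now KMT2D), SUV420H2.2001 (now KMT5C) and SMYD1.1440. MBD2.752 targets a reader of methylated DNA. Members against the ubiquitin system were CDC34.798, DDB1.833, HUWE1.11874, UBR4.1229 and USP7.1000. Others were AIRE.297, CCDC79.2327 (now TERB1), INMT.69, PARP12.1221, PRKAA2.2299 and RAI1.2046.

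Over all 7262 hairpins that passed a filter on low counts, edgeR's quasi-likelihood test called 1 hairpin higher under AZA (0.0138%) and 4 lower (0.0551%) at an adjusted p under 0.05. Of the members 75 passed that filter, the exceptions being AURKB.363, RAI1.2046, SKIV2L2.2075 and SMYD1.1440. None of the 75 was called, while 12 had an unadjusted p under 0.05 (1.9% of all hairpins, higher under AZA) and DESeq2 called 10 of the 64 with an adjusted p (0.823% of all hairpins, higher under AZA). The rule used this contrast, so nothing is read from these counts. Their median fitted log2 fold change was 1.84, also with the hairpins at 0 in all untreated cultures set to their bound, and 65 were above 0 (45.1% of all hairpins). With the culture number as a block the median was 6.40. The groups did not overlap in 22, all higher under AZA (6.62% of all hairpins). The SD over cultures exceeded the mean CPM in 74 members without drug and in 17 with AZA.

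The 464 other hairpins of the 68 genes are those left after the rule had taken its members out. For that reason few of them can hold the rule's pattern. Only 4 (0.86%) had fewer than 10 counts in at least 2 untreated cultures. They therefore cannot show how far a gene as a whole shared the pattern, and their values describe the remaining hairpins only. In the 461 that were tested the median log2 fold change was -0.06, against -0.10 over all hairpins, and 224 (48.6%) were above 0. The difference of the medians was 0.04 and, by replicate pair, the median shift relative to all hairpins was 0.10, 0 and 0.02 (SD 0.05). EdgeR called none of them in either direction, 3 had an unadjusted p under 0.05 on the higher side (0.651%) and 10 on the lower side (2.17%), against 1.9% and 3.72% of all hairpins. DESeq2 called 2 higher (0.442%) and 3 lower (0.662%) of the 453 with an adjusted p, against 0.823% and 1.06% of all hairpins. The groups did not overlap in 26 that were higher (5.64%) and 23 that were lower (4.99%), against 6.62% and 6.6% of all hairpins. The shares called at either p and the shares without overlap were thus no higher than those of all hairpins, in both directions. All hairpins include the members and these 464 do not, which favours lower shares on the higher side. Nothing is read from this about the genes as a whole.

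The same hairpins were less abundant than those of other genes in both arms. Their median count was 1153 without drug and 1742 with AZA, against 1602 and 2245 for the 6750 hairpins of the other genes. Counts below 10 in at least 1 untreated culture occurred in 52 of the 464 (11.21%) and in 372 of the 6750 (5.51%). In the AZA arm the numbers were 15 (3.23%) and 75 (1.11%). The part of this lower abundance in the members' counts was not tested.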

How the data were processed

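Guide strands were amplified by PCR from genomic DNA of 3 untreated and 3 AZA-treated SKK-1 cultures and sequenced. The authors deposited raw counts per hairpin, 1 table a library, which list the hairpins with at least 1 count. Hairpins not listed for a library were set to 0. CASAVA 1.9 and GRCh37 stand in the processing notes of the submitters. How reads were assigned to hairpins is not stated by the sources used here, and hairpins whose guides overlap or share sequence may share reads. Molecular identifiers are not described, and PCR duplicates remain in the counts. Groups and culture numbers come from the sample titles. Nothing says whether each culture was amplified more than once, so the spread between libraries includes technical spread.

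The members are the hairpins under 10 counts in 2 or more untreated libraries and at 100 or more in 2 or more AZA libraries. The members and the gene lists were chosen with earlier results of these data known. Described one by one were every gene with 2 or more members, the members under 10 in all 3 untreated and at 100 or more in all 3 AZA libraries, and the 5 other members with the highest mean AZA CPM. The further members were named by function, and those given with values besides were picked after their values were seen. Of the 79 members, 4 are not reported here, 1 of them among those to be described one by one. All 912 genes matched RefSeq by Entrez identifier, 6 member genes have another current symbol, and 1 symbol that had become a date was restored.

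Counts were normalized by TMM, and a hairpin was tested if its CPM exceeded 0.5 in 3 or more libraries. The quasi-likelihood test of edgeR 4.0.16 was run in R 4.3.3 (with limma 3.58.1), with treatment as the only term and Benjamini-Hochberg adjustment over all 7262 tested hairpins. CPM means, their SDs, the fold over the floor and the overlap of groups use library totals scaled by the TMM factors. The limits of a count of 0 and the log2 differences within the untreated culture that kept a hairpin use plain library totals. Guides were taken from the library's published list, which was held here only in part (1986 guides), matched to GENCODE release 44 transcripts and read back from GRCh38. The guides of BOP1 are not printed.

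Culture numbers were taken to pair the libraries, because each transduced culture was split between both groups and the sample titles number both groups alike. When the group mean of log2 CPM (prior count 2) was subtracted, libraries of the same number correlated at 0.129, 0.114 and 0.140. Other pairs correlated at -0.0984 to -0.0251. These correlations run over hairpins, and hairpins are no independent replicates. No library was a duplicate of another in its group, as chi-square per degree of freedom was 438 to 910. In a test on simulated data with the real means and library sizes, in which 200 of 7262 hairpins were changed, the test found 1% of those changed 4-fold and 64.5% of those changed 16-fold. It made 0 calls with unchanged counts and 2 false calls in the 16-fold run. All simulated hairpins had the same dispersion, so these shares do not apply to hairpins as uneven between cultures as the members. Alternatives were other count thresholds, counts scaled to equal totals, both thresholds in all 3 libraries, pairs of one culture, DESeq2 size factors, library totals, no filter, CPM above 10, the replicate block, the DESeq2 1.42.0 Wald test and leaving out each library.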

Additional observations from a re-analysis of the deposited data

How the results depend on the processing

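The rule took 61 to 103 hairpins with the lower threshold at 5 or 20 or the upper one at 50 or 200, 75 on scaled counts and 64 within pairs of one culture. It took 18 with the upper threshold at 1000, 3 with both thresholds in all 3 libraries, and 27 to 68 with 1 library left out. Genes with 2 or more members numbered 9 in the rule as given, 1 and 0 under these stricter thresholds, and 2 to 6 with 1 library left out. The share of core essential hairpins that were members was 1.16% with the upper threshold at 1000 and 0.19% in all 3 libraries, against 0.25% and 0.04% of all hairpins. The reverse rule took 4 hairpins, 0 at 1000 counts, 0 in all 3 libraries, 2 with the replicate block and 1 to 3 with 1 library left out. Over all hairpins, library totals gave 2 calls higher under AZA, and the DESeq2 Wald test 59 higher and 76 lower, against 1 and 4. With the replicate block edgeR made 1 and 3 calls, and with 1 library left out 0 to 2 and 0 to 3. For the other hairpins of the member genes, DESeq2 called 2 higher and 3 lower and edgeR none under any setting. Their median log2 fold change minus that of all hairpins was 0.036, 0.091 with the replicate block, and -0.004 to 0.079 with 1 library left out. Of 309 fitted log2 fold changes of the 26 members that the naming rule took, 269 moved by less than their SE and 20, of 9 hairpins, changed sign, 4 of them with the replicate block. None was called in the fit as given. Library totals moved the median of all hairpins from -0.096 to 0.067. At these depths a count of 0 allowed up to 0.1328 to 0.244 CPM.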

Other observations

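The 4 hairpins of the reversed rule had fewer than 10 counts in at least 2 AZA cultures and 100 or more in at least 2 untreated ones. MCM3.2621, against a subunit of the replicative helicase, had 398, 1666 and 0 untreated counts and 0 in all 3 AZA cultures. CBX2.162, against a Polycomb protein, had 665 and 417 counts in untreated cultures 1 and 2 and over 100 in culture 3, against 197, 6 and 2 under AZA. METTL7A.1831 (now TMT1A) had 131, 1 and 533 against 0, 0 and 374, and SMYD1.2271 had 789, 33 and 3959 against 0, 0 and 654. SMYD1, a muscle methyltransferase, thus had hairpins under both rules, with SMYD1.1440 at 0, 2 and 0 against 224, 0 and 246.

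Of the 113 hairpins that were scarce in at least 2 untreated cultures, 34 were not members. In 24 of them at least 2 AZA cultures were below 10 counts too, 25 had 100 or more counts in 1 AZA culture, and 9 in none. EHMT1.1896, against a histone methyltransferase, had 76, 0 and 0 untreated counts and 0 in every AZA culture. MEN1.2313, against menin, had 0 in every untreated culture and 0, 0 and 1290 under AZA. HDAC5.898 was counted in 1 library only, with 1848 counts in untreated culture 3, while HDAC5.3430 was a member. These hairpins were picked after their values were seen.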
